A study of Rattus norvegicus with 40 samples.

Results

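DNA methylation was compared between the kidney and the blood of Dahl SS/JrHsdMcwi (SS/MCW) rats, an inbred line whose blood pressure rises on salt, on the chow labelled HS. The members are all 60906 regions of the deposited kidney against blood table of this group, of 265136 regions in the 5 tables of that kind. The rats were 10 weeks old and had eaten HS chow for 3 weeks. The labels call the samples circulating T cells and kidney T cells. They give no isolation method, sort or gate, and the samples are called blood and kidney libraries here. Each tissue had 4 libraries, each from a pool of 3 rats, and the same 4 pools gave both tissues. These are 8 of the 40 libraries of the series, which were made by reduced representation bisulfite sequencing, a method that reads cytosine methylation at CpG dinucleotides in a CpG-rich part of the genome. The groups set beside it were SS/MCW rats on LS chow at 10 and at 7 weeks, and Dahl SS/JrHsdMcwiCrl (SS/CRL) rats at 10 weeks on LS chow or on HS chow for 3 weeks.

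In mammals methyl groups are set on CpGs by Dnmt3a and Dnmt3b and copied at cell division by Dnmt1. Promoters rich in CpG are mostly free of methylation, whereas gene bodies and the stretches between genes mostly carry it. Each cell type has its own set of unmethylated promoters and enhancers, largely at the genes of its identity, so that the same region can be unmethylated in one cell type and methylated in another. A methylation level is a share of molecules and says nothing by itself about the level of a transcript. In a mixed sample, a change in the share of a cell type and a change within a cell type cannot be told apart.

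The table held 1 mean level per tissue and region and no value per pool or read depth, so no spread or interval stands beside a level, and the depth behind it is unknown. A region is called higher or lower in kidney where the adjusted Mann-Whitney p in the authors' deposited table was under 0.05 and the authors' difference was at least 10 percentage points. The table classes each region as TSS, for the surroundings of a transcription start, Intragenic, called gene body here, or Intergenic. Coordinates are those of rn5.

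Sequences are shown for 6 genes whose start regions were among those called, to let the CpGs that such a promoter can hold be seen. Each is the RefSeq window of 300 bases around a gene's start in GRCr8, written 5′ to 3′ on the gene's strand, with every CG in capitals. Both Arhgap30 and Cd37 had a start region called higher in kidney, and Slc22a8, Cubn, Acta2 and Nradd had one called lower. Since the build differs from that of the table, whether the measured region lies in the window was not determined. The windows lie at chr13:86354483-86354782, plus strand (Arhgap30), chr1:104860735-104861034, minus strand (Cd37), chr1:214927034-214927333, plus strand (Slc22a8), chr17:81501645-81501944, minus strand (Cubn), chr1:241172454-241172753, minus strand (Acta2) and chr8:119481165-119481464, minus strand (Nradd).
Arhgap30: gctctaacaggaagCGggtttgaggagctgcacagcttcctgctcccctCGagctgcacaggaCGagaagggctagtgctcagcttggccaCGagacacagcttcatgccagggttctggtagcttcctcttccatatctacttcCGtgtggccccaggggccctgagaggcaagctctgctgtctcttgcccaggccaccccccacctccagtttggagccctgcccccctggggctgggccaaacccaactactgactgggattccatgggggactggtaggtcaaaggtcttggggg
Cd37: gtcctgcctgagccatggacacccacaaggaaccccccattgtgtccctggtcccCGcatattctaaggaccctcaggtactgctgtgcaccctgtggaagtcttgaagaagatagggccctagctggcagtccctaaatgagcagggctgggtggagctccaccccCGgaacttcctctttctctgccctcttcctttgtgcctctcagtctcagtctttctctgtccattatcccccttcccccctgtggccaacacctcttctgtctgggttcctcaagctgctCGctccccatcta
Slc22a8: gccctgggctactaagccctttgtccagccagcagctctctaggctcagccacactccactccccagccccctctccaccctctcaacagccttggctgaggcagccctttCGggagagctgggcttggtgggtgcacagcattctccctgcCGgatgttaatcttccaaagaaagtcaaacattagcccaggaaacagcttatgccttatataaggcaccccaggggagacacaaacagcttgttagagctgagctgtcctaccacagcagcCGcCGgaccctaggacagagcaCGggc
Cubn: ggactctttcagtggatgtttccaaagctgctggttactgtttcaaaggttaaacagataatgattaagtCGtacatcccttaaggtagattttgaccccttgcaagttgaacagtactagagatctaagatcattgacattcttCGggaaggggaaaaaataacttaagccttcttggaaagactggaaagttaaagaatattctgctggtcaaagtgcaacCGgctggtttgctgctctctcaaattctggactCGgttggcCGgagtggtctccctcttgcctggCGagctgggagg
Acta2: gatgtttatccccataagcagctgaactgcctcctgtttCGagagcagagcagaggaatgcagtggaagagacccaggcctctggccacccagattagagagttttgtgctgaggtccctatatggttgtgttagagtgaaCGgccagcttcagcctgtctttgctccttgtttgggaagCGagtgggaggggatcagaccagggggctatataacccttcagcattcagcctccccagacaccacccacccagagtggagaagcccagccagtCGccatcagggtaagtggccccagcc
Nradd: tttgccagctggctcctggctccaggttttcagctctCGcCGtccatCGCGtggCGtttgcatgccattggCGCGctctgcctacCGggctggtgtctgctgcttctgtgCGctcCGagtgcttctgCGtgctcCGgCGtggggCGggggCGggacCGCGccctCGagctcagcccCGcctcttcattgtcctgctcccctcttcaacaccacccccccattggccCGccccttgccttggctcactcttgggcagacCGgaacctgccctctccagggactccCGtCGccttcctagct

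The windows held 5 CG (Arhgap30), 3 (Cd37), 5 (Slc22a8), 6 (Cubn), 4 (Acta2) and 23 (Nradd). Of 24206 RefSeq windows of symbols with a single window, 94.8% held at least 1 CG, and the median was 8. The Nradd window thus held more CG than the median, and the others fewer.

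Kidney libraries had lower levels than blood libraries over most of the table. The mean level over all regions was 51.0% in blood and 43.9% in kidney, and the median difference, kidney minus blood, was -4.40 percentage points. The level was lower in kidney in 86.1% of regions. Of the 60906 regions, 13242 were called lower in kidney (21.7%) and 1814 were called higher (2.98%). With the authors' q-value under 0.05 in place of the adjusted p, 1894 were lower and 497 higher. The called lower regions had a median of 79.4% in blood and 54.7% in kidney, and the called higher ones 11.4% and 40.5%. Their median differences were -19.7 and 22.3 percentage points.

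Levels at starts, in gene bodies and between genes differed in kind. TSS regions had a median of 2.53% in blood and 1.31% in kidney, and 1432 of 13686 were called lower (10.5%) and 238 higher (1.74%). Gene body regions had a median of 77.9% and 67.6%, and 4462 of 15421 were called lower (28.9%) and 648 higher (4.2%). Intergenic regions had a median of 74.9% and 63.7%, with 7348 of 31799 called lower (23.1%) and 928 higher (2.92%). Gene bodies thus had the largest share of calls in both directions, and starts the smallest.

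**Figure D1:**
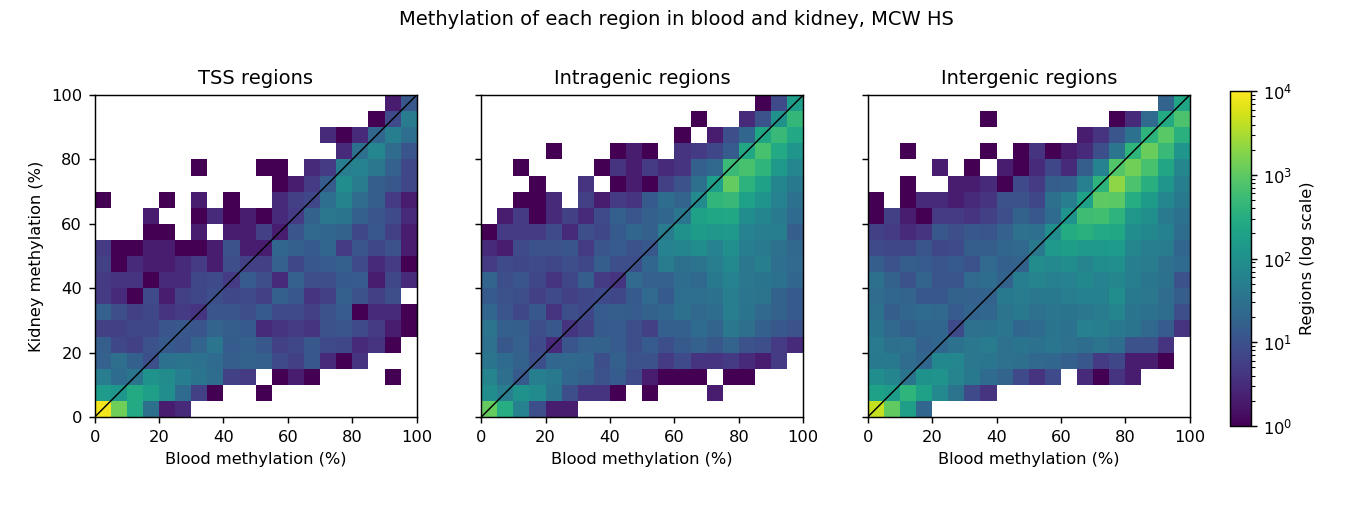
Methylation in blood (x axis, %) against kidney (y axis, %) for the regions of each class, in squares of 5 by 5 percentage points coloured by the number of regions on a log scale; the line marks equal levels. Most TSS regions sit near 0 in both tissues, and in the other classes regions methylated in blood spread downward in kidney.

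The call depended strongly on the blood level. Among the 15122 regions at up to 5% in blood, 568 were called higher and 5 lower, and 14027 were at up to 5% in kidney as well. Among the 7089 regions over 90% in blood, 2567 were called lower and 0 higher. A call needs a difference of at least 10 percentage points. The rule thus leaves almost no room for a higher call there, or for a lower call at up to 5%. Between 20% and 40% in blood both directions were frequent, at 39.4% lower and 14.4% higher of 2414 regions. Starts that carried methylation in blood were called lower often: of the 293 TSS regions over 90% in blood, 143 were called lower (48.8%), against 40.6% of gene body regions and 32.5% of intergenic regions at that blood level. Kidney levels seldom reached the far end. Of 17977 regions over 80% in blood, 23 were at most 20% in kidney, and of the regions at up to 5% in blood, 3 were over 60% in kidney.

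Calls were found on every chromosome. The share called lower ran from 19.2% on chromosome 2 to 27.0% on chromosome 20 among the autosomes, and the share called higher from 1.85% on chromosome 14 to 4.45% on chromosome 20. Chromosome X had 14.7% lower and 1.75% higher, below every autosome in both directions.

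The largest increases in kidney included genes of T cells. Among regions with a gene, the largest was at the start of Grap2, the adaptor (Gads) that joins Slp76 to the T cell receptor complex, on chromosome 7 from 121782257 to 121782444, at 0% in blood and 65.1% in kidney over 9 CpGs. The authors' deposited table gives it an adjusted p of 2.8e-11 and a q-value of 1, so the call does not hold by the q-value. A gene body region of Gsap, which encodes a protein that binds gamma-secretase, was at 11.3% and 76.2%. A gene body region of Cd247, the zeta chain of the T cell receptor, was at 7.00% and 63.6%. Ccr7, the chemokine receptor that brings lymphocytes into lymph nodes, was at 23.6% and 80.02%. Elmo1, which acts with Dock proteins in cell migration, was at 0.154% and 53.2% over 15 CpGs. The others of the 10 largest were LOC498154 (15.8% and 71.9%), Leprotl1 (2.32% and 57.0%), Slco3a1 (14.4% and 67.2%), the start of Ubxn10 and Pla2g2c (0.494% and 53.0%) and Ube4b (7.95% and 60.3%). In the authors' deposited table LOC498154 and Leprotl1 have q-values of 0.11 and 0.6, and their calls do not hold by the q-value either. The largest increase of all lay between genes, on chromosome 4 from 165652586 to 165652749, at 13.0% in blood and 83.4% in kidney.

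The largest decreases were in genes of many kinds, and their kidney levels lay between 13.3% and 25.5%. The start of Nradd, which encodes a death domain receptor related to the p75 neurotrophin receptor, on chromosome 8 from 118234737 to 118234859, was at 90.2% in blood and 13.3% in kidney over 9 CpGs (adjusted p = 2.8e-11 and q-value 1.4e-06 in the authors' deposited table). Gene body regions followed in Cdk6, a cell cycle kinase (96.7% and 21.1%), Map7, a microtubule-binding protein of epithelia (94.4% and 19.3%), Muc19 with Yaf2 (94.1% and 19.3%) and Sulf2, an enzyme that trims heparan sulfate (92.1% and 17.5%). Acvr1b, an activin receptor, was at 98.7% and 24.6%, and Thrb, a thyroid hormone receptor, at 96.9% and 23.2%. Sh2d3c (92.1% and 18.6%), Map3k14, a kinase of the non-canonical NF-kappa B pathway (88.0% and 15.1%), and Aff3 (98.2% and 25.5%) completed the 10. The calls of Map7 (q-value 0.26 in the authors' deposited table) and Thrb do not hold by the q-value. The largest intergenic decrease was on chromosome 9 from 36057442 to 36057490, at 90.6% and 16.3%.

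**Figure D2:**
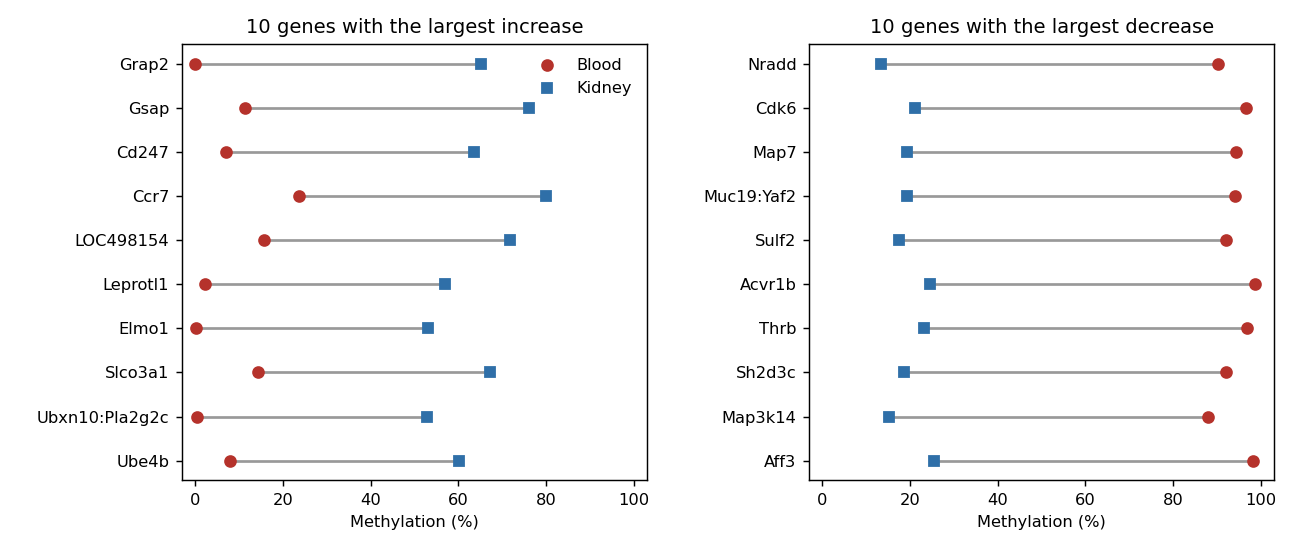
Methylation (%) in blood (circles) and kidney (squares) of the region with the largest called increase (left) and decrease (right) in each of 10 genes; each point is the mean of 4 pools. In the genes on the left blood lies under 25% and kidney over 50%, and in those on the right blood lies over 85% and kidney under 26%.

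Genes with many tested regions carried the most calls. Camta1, a calmodulin-binding transcription factor, had 34 of its 75 regions called lower and 4 higher. Ccdc40 had 17 lower and 2 higher of 47, Arhgap45 14 and 3 of 35, Ppil1 14 and 3 of 36, Cmip 15 and 1 of 27, Shank3 15 and 0 of 27, Muc19 13 and 2 of 65 and Anks1a 13 and 1 of 23. LOC310926 had 18 lower of 69. Rn5-8s, a ribosomal RNA present in many near-identical copies, had 41 lower of 149, which is uncertain because reads of such copies can be assigned to any of them. Amn stood at the other end, with 12 regions higher and 1 lower.

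Of the 8955 genes with a region, 3619 carried at least 1 called lower (40.4%) and 705 at least 1 called higher (7.87%), and 342 carried both. Those shares are the background for the gene lists that follow. A gene with more regions has more chances to carry a call, and the lists differ in regions per gene. Over the 29107 regions with a gene, 5894 were called lower and 886 higher. The list calls rest on the adjusted p. Over the whole table most calls do not hold by the q-value. Among those named below, the same is true of Ets1, Ikzf1, Il4, Itgal, Nckap1l and Stk10. It is also true of the largest called regions of Cd8a, Lag3, Tnfrsf9, Jak3, Socs3, Slc22a8, Atp1b1, Nedd4l, Nos2, Nfkbiz, Gapdh and Actb. The naming here is not complete.

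The T cell receptor couples an antigen signal to kinases and adaptors. Of 26 genes of T cell receptor signalling with a region, 13 carried a region called higher in kidney (50%, against 7.87% of all genes). A region called lower was carried by 12 (46.2%, against 40.4%). The start of Lat, the membrane adaptor of the pathway, was at 0.0408% in blood and 31.6% in kidney. Lcp2, which encodes Slp76, was at 10.8% and 49.5%, and a region of Dgkz, which limits diacylglycerol signalling, at 13.1% and 63.6%. The start of Ubash3a, a phosphatase-like inhibitor of the receptor, was at 0% and 22.95%. A region of Cd28, the co-stimulatory receptor, was at 37.2% and 54.1%, and the start of Cd8a, a chain of the CD8 molecule, at 42.5% and 64.2%. The 22 higher regions of this list had a median of 12.0% in blood and 53.9% in kidney. Cd3e, Cd4 and Foxp3, which define T cells and their subsets, had no region in the table, and neither had Ifng or Il17a.

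Cd247 showed the pattern along a whole gene. Of its 8 regions 5 were called higher and 0 lower. In order of coordinate, the called regions were at 21.04% in blood and 66.7% in kidney, 7.00% and 63.6%, 18.9% and 42.8%, 15.1% and 58.2%, and 61.5% and 85.3%. The uncalled ones included a region at 96.02% and 92.5%, methylated in both tissues.

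Kinases of the same pathway carried lower regions. Fyn, a Src family kinase found in T cells and elsewhere, had 5 lower and 2 higher regions, from 86.5% to 31.1% for the largest decrease and from 20.2% to 53.8% for the largest increase. Skap1, an adaptor of Fyn, had 9 lower regions, with 95.98% in blood and 47.6% in kidney at the largest. Zap70, the kinase that binds the phosphorylated zeta chain, had 2, at 68.3% and 22.9% and at 84.3% and 49.4%. Nfatc1, a calcium-driven transcription factor, had 2 regions in each direction.

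Transcription factors of T cells were called in both directions. Of 23 genes, 6 carried a higher region (26.1%, against 7.87% of all genes) and 8 a lower one (34.8%, against 40.4%). The start of Klf2, which keeps lymphocytes quiescent and recirculating, was at 3.31% in blood and 45.2% in kidney over 18 CpGs. Ets1 was at 0% and 41.9%, and Ikzf1, needed for lymphoid development, at 13.7% and 55.5%. Among the lower, Runx1 was at 92.1% and 23.6%, Runx3 at 87.2% and 30.8%, and Prdm1, a factor of effector differentiation, at 91.4% and 51.6%. The other 4 uncalled regions around the Klf2 start were not called and lay between 0% and 0.195% in blood and between 0% and 3.19% in kidney.

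Receptors and ligands of T cell activation were called in both directions as well. Of 13 activation and checkpoint receptors, 4 carried a higher region (30.8%, against 7.87% of all genes) and 6 a lower one (46.2%, against 40.4%). The start of Tnfrsf18, the receptor GITR, was at 0.735% in blood and 28.3% in kidney, and that of Lag3, an inhibitory receptor, at 16.6% and 34.7%. A body region of Lag3 was called lower, at 24.0% and 9.76%. The start of Tnfrsf9, the receptor 4-1BB, was lower, at 83.7% and 45.8%, as was Egr2 at 88.7% and 60.5%. Of 8 cytokine and cytotoxic genes, 1 carried a higher region (12.5%) and 2 a lower one (25%). The start of Lta was higher (0.590% and 37.7%). The start of Il4, at 75.8% and 26.4%, and Tgfb1, at 81.0% and 24.8%, were lower. Of 24 genes of cytokine receptors and JAK-STAT signalling, 4 carried a higher region (16.7%) and 12 a lower one (50%). Jak3, the kinase of the common gamma chain, had 7 lower regions, the largest from 94.3% to 25.6%, and the start of Socs3, a feedback inhibitor, was at 5.42% and 36.3%. Of 17 trafficking genes, 4 carried a higher region (23.5%, against 7.87% of all genes) and 7 a lower one (41.2%, against 40.4%). The start of Itgal, the integrin LFA-1, was at 6.48% and 40.8%, and a body region of it was called lower, at 81.0% and 52.0%. Itgam, an integrin of myeloid cells, was at 89.6% and 27.3%.

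Genes expressed across leukocytes were often called higher at their starts. Of 34 such genes, 13 carried a higher region (38.2%, against 7.87% of all genes) and 18 a lower one (52.9%, against 40.4%). Over the 22 genes of the list with a start region, 10 had one called higher and 5 one called lower, where 3.74% and 20.9% of all genes with a start region did. Starts of Nckap1l, an actin regulator of blood cells, were at 0% in blood and 43.2% in kidney, of Arhgap30 at 0.475% and 45.1%, of Arhgap25 at 0% and 31.0% and of Dok2, an adaptor, at 19.0% and 61.4%. Stk10, a kinase of lymphocytes, had 3 higher regions, the largest from 12.0% to 59.0%.

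A gene could carry both directions, at its start and in its body. Of 2566 genes with both classes of region, 57 had a start called higher and a body region called lower, and 63 had the reverse. Both were called lower in 248 and higher in 23, and a gene with several called regions can stand in more than 1 of these counts. Of all genes with a start region, 3.74% had one called higher and 20.9% one called lower. Whether the counts depart from what such shares would give was not tested. Cd37, a tetraspanin of leukocytes, was at 2.99% in blood and 44.2% in kidney at a start region and at 91.4% and 38.8% in its body, and another start region was called lower, at 84.3% and 61.8%. Map4k1, a kinase of blood cells, was at 0.298% and 36.8% at its start and at 97.0% and 62.3% in its body. The start of Gata3, the factor of type 2 helper cells, was at 0.128% and 11.2%, and a body region at 82.2% and 71.7%. In the reverse group, Hnf4a, a transcription factor of the proximal tubule, was at 80.7% and 42.5% at a start and at 34.5% and 52.5% in its body, and another body region was called lower, at 75.8% and 36.0%.

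Most genes of the proximal tubule carried a region that was lower in the kidney libraries. Of 31 proximal tubule genes, 21 carried a region called lower (67.7%, against 40.4% of all genes) and 3 one called higher (9.68%, against 7.87%). Of the 19 with a start region, 10 had one called lower and 0 one called higher, where 20.9% and 3.74% of all genes with a start region did. By region, 32 of 96 of the list were lower and 14 higher. The start of Slc22a8, an organic anion transporter, was at 91.0% in blood and 37.2% in kidney. The start of Slc22a6, another such transporter, was at 85.7% and 43.4%, that of Aqp1, a water channel, at 78.0% and 41.7%, and a body region of Slc34a1, the sodium phosphate cotransporter, at 78.1% and 24.8%. None of these kidney levels was at 0.

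Further down the nephron, 19 of 33 genes of the loop of Henle, distal tubule and collecting duct carried a lower region and 3 a higher one. That is 57.6% and 9.09%, where all genes had 40.4% and 7.87%. The start of Epcam, an epithelial adhesion molecule, was at 81.3% in blood and 29.0% in kidney, and that of Scnn1a, a subunit of the sodium channel, at 66.7% and 22.95%. Esrrg had 5 lower regions, the largest from 95.2% to 37.6%. Of 15 podocyte genes 10 carried a lower region (66.7%) and 2 a higher one (13.3%). Ptpro, a phosphatase of podocytes, was at 76.0% and 28.1% in one region and at 12.0% and 47.1% in another. Nphs1, the nephrin gene, was at 17.1% and 5.61%.

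Vessel and stroma genes were called in both directions. Of 26 endothelial genes 15 carried a lower region (57.7%, against 40.4% of all genes) and 7 a higher one (26.9%, against 7.87%). By region, 26 of 118 were lower and 7 higher, where 5894 and 886 of all 29107 regions with a gene were. Tie1, a receptor of endothelium, was at 95.03% in blood and 30.7% in kidney, Robo4 at 92.3% and 30.8% and Flt1, a receptor for VEGF, at 93.9% and 35.5%. Nos3, the endothelial nitric oxide synthase, had a region at 11.4% and 47.4% beside 3 lower ones. Of 19 genes of fibroblasts, pericytes and smooth muscle 10 carried a lower region (52.6%) and 2 a higher one (10.5%). By region, 16 of 96 were lower and 2 higher. The start of Acta2, smooth muscle actin, was at 89.3% and 38.5%, and that of Myh11, smooth muscle myosin, at 94.0% and 46.8%.

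Markers of other blood cells were tested as well. Of 21 myeloid genes 12 carried a lower region (57.1%, against 40.4% of all genes) and 2 a higher one (9.52%, against 7.87%). Fcgr1a, an Fc receptor, was at 83.9% in blood and 30.4% in kidney, and the start of Cybb, the phagocyte oxidase, at 2.63% and 49.8%. Of 9 B cell genes 3 carried a lower region and 3 a higher one (33.3% each). Ebf1 and Pax5, 2 factors of B cell identity, were in both counts. Of 7 genes of natural killer cells 2 carried a lower region (28.6%), and Cd247, which T cells share, was the 1 with a higher region (14.3%). The part that other cell types in the kidney libraries have in either result was not tested.

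**Figure D3:**
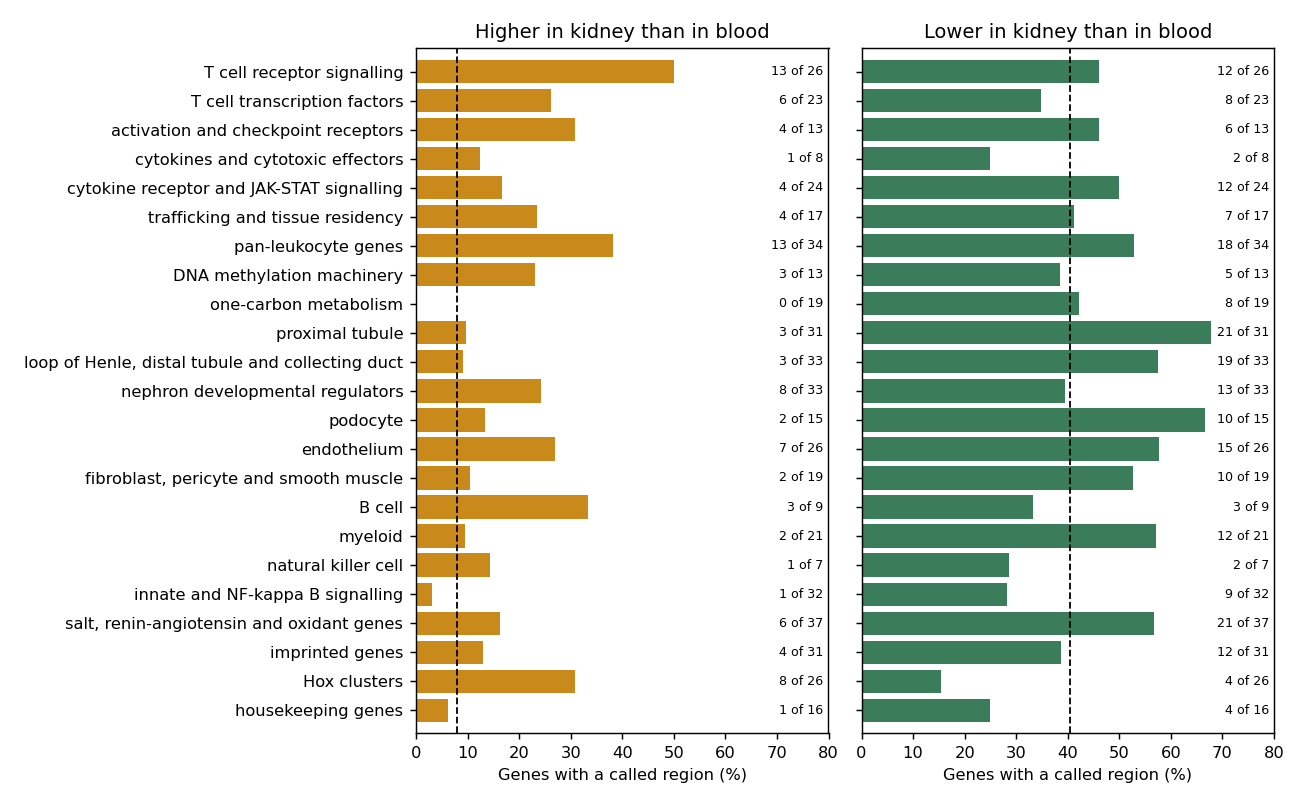
Share of the tested genes of each list (%) with at least 1 region called higher (left) or lower (right) in kidney, with the counts at the right edge; dashed lines mark all genes of the table, at 7.87% and 40.4%. T cell receptor signalling has the longest bar on the left, at 13 of 26, and proximal tubule the longest on the right, at 21 of 31. The lists differ in the number of regions per gene, which the bars do not take into account.

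Amn and Cubn, whose products form the receptor for protein uptake in the proximal tubule, each had both directions. Amn had 24 regions. The 16 gene body regions were at 0.283% to 8.64% in blood and at 3.98% to 26.4% in kidney, and 12 of them were called higher. Of its 8 TSS regions 1 was called lower, from 13.6% to 3.56%, and 7 were not called. A gene body region of Cubn was at 0% and 36.3%, a start region at 76.2% and 35.8% and a further body region at 70.2% and 30.7%. Pax2, a regulator of nephron formation, had 5 regions higher and 0 lower of 16, all 5 in the gene body, with kidney levels of 12.6% to 31.4%. Of 33 developmental regulators of the nephron 8 carried a higher region (24.2%, against 7.87% of all genes) and 13 a lower one (39.4%, against 40.4%). The higher ones included Wt1 (7.41% and 25.9%) and Six2 (a start at 3.27% and 13.4%). Bmp7 (90.5% and 30.9%) and Sall1 (84.3% and 45.8%) were among the lower ones.

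Hox genes set position along the body axis, and their called members lay in several clusters. Of 26 Hox genes with a region 8 carried a higher region and 4 a lower one, which is 30.8% and 15.4% where all genes had 7.87% and 40.4%. In the Hoxd cluster, all 5 regions of Hoxd12 were higher, with 7.06% to 16.5% in blood and 18.6% to 56.0% in kidney. Of 9 regions of Hoxd3 7 were higher, and Hoxd4 and Hoxd9 had 1 each (9.93% and 29.4%, and 15.8% and 39.3%). The lower ones included Hoxb3, with 3 regions, the largest from 94.1% to 39.9%, Hoxb4 (17.9% and 6.72%) and Hoxb5 (65.8% and 37.8%). Hoxa6 was the other gene with lower regions, from 45.7% to 16.3% at the larger, and Hoxb9, in the same cluster as Hoxb3, had a higher one (14.9% and 26.4%).

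Genes of the methylation machinery were called in both directions. Of 13 genes of this list with a region, 3 carried a higher one (23.1%, against 7.87% of all genes). A lower one was carried by 5 (38.5%, against 40.4%). Dnmt3a had 2 start regions called higher, at 0.853% in blood and 32.1% in kidney and at 3.85% and 26.0%, and a body region called lower, at 77.5% and 50.7%. A body region of Dnmt3b was at 1.56% and 50.6% over 9 CpGs. Dnmt3l, a cofactor of both, had 3 higher regions, the largest from 4.04% to 34.2%. The 3 regions of Dnmt1 were not called, the widest difference being from 76.8% to 69.3%, and Tet1, Tet2 and Tet3 had no region. Of 19 genes of one-carbon metabolism, which feeds the methyl donor, 8 carried a lower region and 0 a higher one. The share with a lower region, 42.1%, was near the 40.4% of all genes. Among them were the starts of Bhmt (90.2% and 51.9%) and Gnmt (68.6% and 25.7%), both abundant in liver and kidney, and Cbs (79.5% and 27.1%).

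Genes of salt handling, angiotensin and oxidant stress bear on the hypertension that these rats develop. Of 37 with a region 21 carried a lower one (56.8%, against 40.4% of all genes) and 6 a higher one (16.2%, against 7.87%). By region, 37 of 140 were lower and 6 higher. Ace, the angiotensin-converting enzyme, was at 80.3% in blood and 27.1% in kidney, Atp1b1, a subunit of the sodium pump, at 78.4% and 27.3%, and Nedd4l, which tags epithelial sodium channels for removal, at 79.8% and 31.1%. Nos2, the inducible nitric oxide synthase, had a region at 13.6% and 44.6%. Agt, Agtr1a, Nr3c2 and Wnk1 had regions and none was called. Of 32 innate and NF-kappa B genes 9 carried a lower region (28.1%) and 1 a higher one (3.1%). Irak2 was at 94.9% and 27.5%, and Nfkbiz at 17.7% and 53.9%. Of 16 housekeeping genes 4 carried a lower region (25%) and 1 a higher one (6.25%). The start of Gapdh was at 45.7% and 10.3%, and a body region of Actb at 2.33% and 19.6%.

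Imprinted genes carry methylation on the allele of one parent only, and many of their regions lay at intermediate levels in both tissues. Of 31 with a region 12 carried a lower one (38.7%, against 40.4% of all genes) and 4 a higher one (12.9%, against 7.87%). Gnas had 24 regions, of which 6 were higher and 2 lower. Within its start regions, one of 21 CpGs was at 45.1% in blood and 23.3% in kidney, and one of 8 CpGs at 13.1% and 34.9%. Kcnq1 had a body region at 11.6% and 59.3% and 4 lower ones, and the start shared by Nnat and Blcap was at 92.9% and 50.3%.

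**Figure D4:**
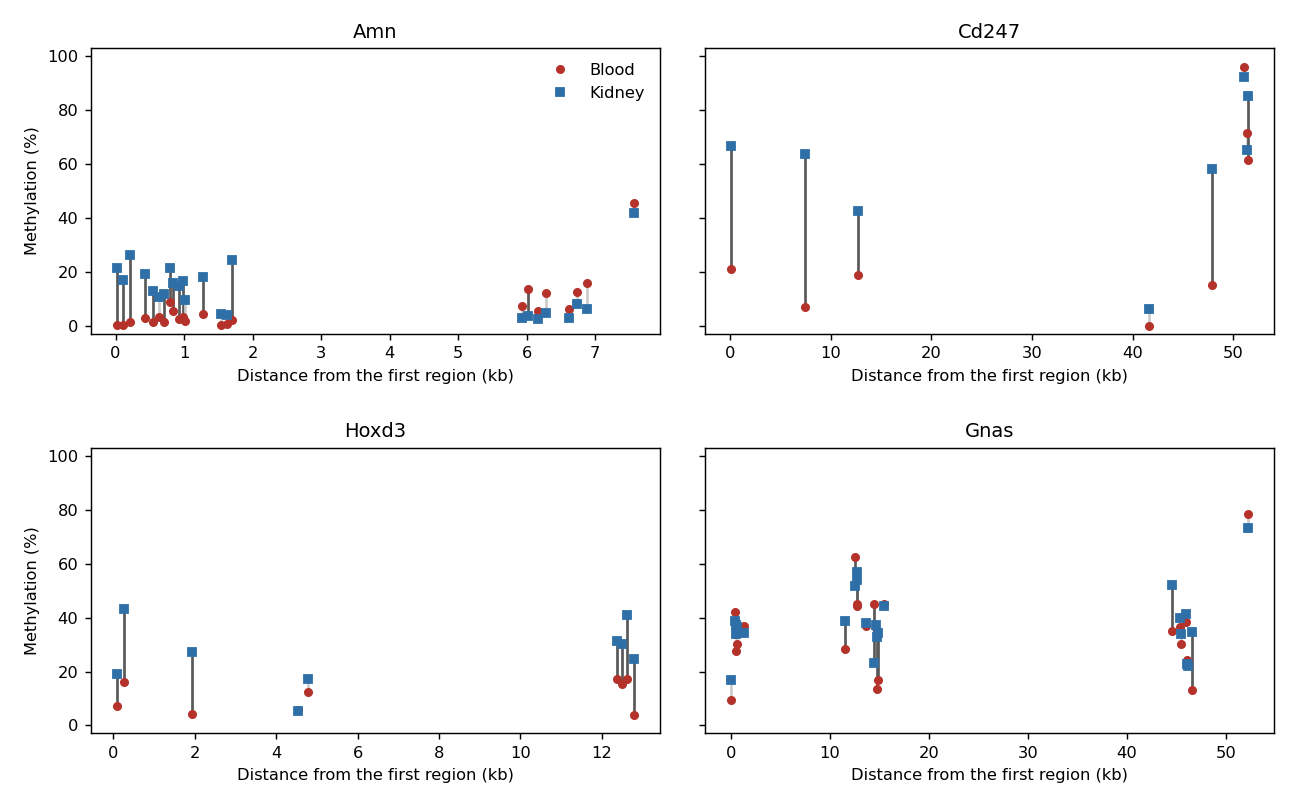
Methylation (%) of every region of Amn, Cd247, Hoxd3 and Gnas in blood (circles) and kidney (squares) against the distance from the gene's first region (kb); dark lines join called regions and pale lines uncalled ones. Amn shows a run of regions higher in kidney at 1 end and lower levels in kidney near its starts, and Gnas lies mostly between 10% and 60% in both tissues.

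The same contrast was set beside that of the other groups, whose tables share no pools with this one. They called 24.6% of regions lower and 2.61% higher in CRL HS, 28% and 2.31% in MCW LS at 10 weeks, 20.5% and 1.99% in CRL LS, and 19.1% and 1.99% in MCW LS at 7 weeks. Of the regions called lower in MCW HS, 6799 shared at least 1 base with a region of each other table, and 5550 of these were called lower in all 5 (81.6%). Of the called higher ones, 765 were tested in each, and 517 were called higher in all 5 (67.6%). Among these, 73 called lower and 31 called higher in MCW HS had no call in the same direction in any other group. They include regions called in the opposite direction elsewhere. Of the gene regions uncalled elsewhere, Zbtb7c (32.8% in blood and 56.4% in kidney) and Ttc7a (27.6% and 51.1%) had the largest differences.

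Kidney levels at the called lower regions were less low in MCW HS than in every other group, while blood levels were alike. Regions with the same coordinates in both tables and called lower in MCW HS had kidney medians of 44.2% in MCW HS and 29.5% in MCW LS at 10 weeks (4438 regions), with blood medians of 77.1% and 77.0%. Beside CRL HS the kidney medians were 47.6% and 39.5%, beside CRL LS 43.4% and 29.99%, and beside MCW LS at 7 weeks 46.8% and 38.9%. The kidney level was higher in MCW HS in 95.7% of these regions against MCW LS at 10 weeks, 90.9% against CRL LS, 89.5% against MCW LS at 7 weeks and 89.4% against CRL HS. Over all regions with the same coordinates, called or not, it was higher in 86.7%, 79.3%, 79.2% and 75.9%, in the same order. At the regions called higher the kidney medians were 38.0% in MCW HS and 31.2% in MCW LS at 10 weeks, 41.6% and 43.3% beside CRL HS, 38.8% and 39.2% beside CRL LS, and 39.5% and 38.2% beside MCW LS at 7 weeks. There the order of the groups was mixed. The regions were chosen by their call in MCW HS, the tables hold no value per pool, and the differences between groups were not tested.

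**Figure D5:**
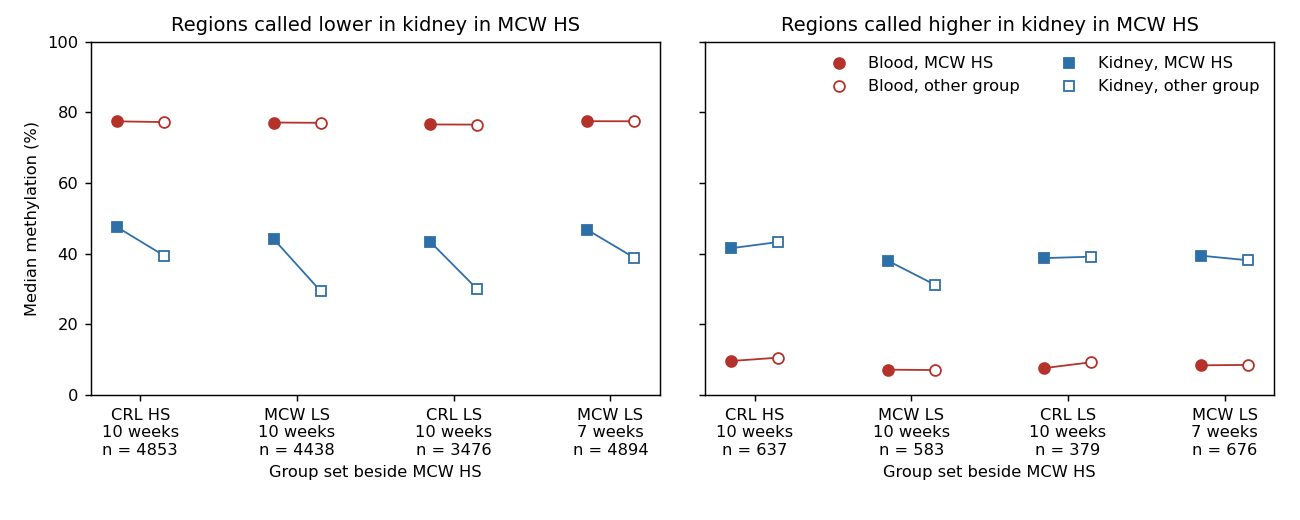
Median methylation (%) in blood (circles) and kidney (squares) of MCW HS (filled) and of another group (open), at regions called lower (left) or higher (right) in MCW HS that have the same coordinates in both tables; n is the number of regions. On the left the open squares lie below the filled ones in each pair, while the circles lie near 77%.

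The deposited tables of HS against LS chow gave the same picture for these libraries. At identical coordinates, the MCW HS level there was equal within 0.01 percentage points in 97.2% of 6483 kidney regions and 92.8% of 6064 blood regions. At the 2888 kidney regions called lower in MCW HS, the median was 24.0% on LS and 40.6% on HS chow, and 98.4% of them were higher on HS chow. At the 339 called higher the medians were 29.8% and 40.9%, with 90.9% higher on HS chow, and at the 3256 not called 42.3% and 50.9%. Blood medians on LS and HS chow were 75.5% and 76.0% at the called lower regions and 16.7% and 16.0% at the called higher ones. The tables hold the same MCW HS libraries as the kidney against blood table, and this is no independent support.

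A few regions went in opposite directions in MCW HS and in other groups. The start region of Ndufa10, part of mitochondrial complex I, which the table also names Ndufa10l1, lies on chromosome 9 from 99316810 to 99316835. In MCW HS its blood level was 39.9% and its kidney level 61.8%, and it was called higher. It was called lower in each of the other 4 tables, with 54.3% to 69.3% in blood and 7.01% to 30.8% in kidney. The table names 2 similar genes for this region, so reads of either copy could be counted there and the value is uncertain. A start region of Smarcc1, a subunit of a chromatin remodelling complex, was also higher in MCW HS (25.3% and 35.8%). It overlapped a region called lower in each other table, as did a start region of Igf2r called higher (16.7% and 27.3%). The overlapping regions had the same coordinates only for Igf2r in MCW LS at 10 weeks. Another start region of Igf2r, of 19 CpGs, was called lower in MCW HS itself, at 40.0% and 26.5%.

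Other genes kept their direction and differed in size. Against MCW LS at 10 weeks, the kidney level was less low in MCW HS at a region of C5h1orf210 (57.9% and 18.5%), at Sufu, an inhibitor of Hedgehog signalling (62.1% and 19.8%), and at Cntnap5b (78.2% and 36.1%), with over 90% in blood in both groups. A region of Myo7b, a myosin of the tubule brush border, was at 59.2% in kidney in MCW HS, where it was not called, and at 18.9% in MCW LS. Against CRL HS, the start region of Cd37 was at 44.2% in kidney in MCW HS and 61.8% in CRL HS, and Ube2e2 at 41.1% and 56.4%, both called higher in each.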

How the data were processed

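Regions, levels and tests are those that the authors deposited. Per the file headers, each table gives for each region a methylation level per group as a fraction, printed here in percent, the authors' difference, the number of CpGs (at least 5), p-value columns and a q-value. Recomputing Benjamini-Hochberg values from the Mann-Whitney column gave the deposited adjusted p-value (largest deviation 5e-16). Regions were segmented anew for each table. Coordinates are on rn5, per the submitters' processing notes. Whether starts count from 0 or 1 is not stated, and they are printed as deposited. Which tools aligned reads and called regions is not given in the sources used here. There were 0 unused columns with per-sample values.

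The p-values reach 2.9e-14, while 4 pools a side allow no exact two-sided p under 0.0286, so the CpGs of a pool entered as separate values. They measure spread among these CpGs and pools only. For regions of 5 CpGs the smallest p, 6.3e-08, is what 20 values against 20 without overlap give, and 515 of 8730 called lower and 133 of 1112 called higher regions had it. The same p was given to 378 regions under 1% in both tissues, which the minimum difference keeps out of the calls.

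Levels were taken as kidney minus blood with Python 3.11.15 and pandas 2.3.3. The calling step was tested on simulated data. Of 8966 symbols 8369 were current in GRCr8 and 470 matched 1 current symbol as a synonym. The members and the 23 gene lists were chosen with earlier results of these data known. The rule for named genes took the 10 largest increases and decreases, the genes with the most calls, the largest calls of each class and up to 3 per direction in each list, a fixed set of methylation enzymes and T cell genes, and the genes that differ most from MCW LS and CRL HS at the same coordinates. List genes named beyond it (Lat, Lcp2, Ubash3a, Cd28, Arhgap25, Dok2, Map4k1, Gata3, Slc22a6, Aqp1, Scnn1a, Nphs1, Nfatc1, Six2, Hoxb4, Hoxb9, Hoxd4, Hoxd9, Agt, Agtr1a, Nr3c2, Wnk1), Zbtb7c, Ttc7a, Smarcc1 and Igf2r were chosen after their values were seen. A gene that the rule names is not reported here.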

Additional observations from a re-analysis of the deposited data

How the results depend on the processing

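No paired analysis was possible because the tables hold 1 mean per tissue and no value per pool. For the same reason no pool could be left out and no depth could be weighed. The 7 alternatives for the counts of called regions left 4 counts within 1.5 times and moved 10. With no minimum difference 26640 regions were lower and 3485 higher, with a minimum of 20 percentage points 6531 and 1052, and with 30 points 3634 and 535. With the authors' q-value, a separate deposited column, under 0.05 the counts were 1894 and 497, and the cause was not tested. Over regions of at least 10 CpGs, which are fewer, they were 1571 and 271. The share of lower among called regions was 88.0% and lay between 79.2% and 88.4% under these alternatives. The median difference of -4.40 percentage points kept its sign under 4 alternatives and was -6.84 over regions above 10% in at least 1 tissue. With start regions only, 75 genes of the lists carried a lower and 41 a higher region, in place of 213 and 92. The kidney medians set beside the other groups are given at the same coordinates, a choice made after seeing the data. The overlap rule was varied for another value, the median over regions of the kidney level in MCW HS minus the other group. Starting from at least 1 shared base, 16 values under a stricter overlap or at the same coordinates kept their sign. The largest shift was 1.22 percentage points, from -0.724 to -1.94 at called higher regions beside CRL LS.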
